A study of Mus with 3 samples.

Results

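The genes described here are the nuclear genes whose products build the oxidative phosphorylation machinery of mitochondria. They were chosen by symbol, as genes whose symbol starts with Nduf (complex I), Uqcr (complex III), Cox4 to Cox8 (complex IV) or Atp5 (complex V, the ATP synthase), with 30 or more transcript molecules (UMIs) summed over all cells. Of the 32285 genes in the deposited matrix, 90 had such a symbol and 87 passed the floor: 45 of complex I, 8 of complex III, 17 of complex IV and 17 of complex V. The 3 symbols left out were Cox8b and Cox8c, with no UMI, and Cox7b2, with 1. Just inside the floor were Ndufa4l2 with 35, Cox4i2 with 38, Cox6b2 with 58 and Cox7a1 with 96 UMIs.

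Oxidative phosphorylation makes ATP in the inner mitochondrial membrane. Complexes I, III and IV pass electrons from NADH to oxygen and pump protons across the membrane, and complex V lets the protons flow back and uses their energy to join phosphate to ADP. Complexes I, III, IV and V each combine subunits made from nuclear genes with a few encoded in mitochondrial DNA, whereas complex II, which takes electrons from succinate, is nuclear throughout. Activated and memory T cells are known to adjust both this route and glycolysis, the breakdown of glucose in the cytosol.

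The cells came from tumors of MC38, a mouse colon carcinoma line, harvested 16 days after injection from 3 kinds of mice: WT, RARα-KO and RARα-TG. RARα, encoded by Rara, is a receptor for retinoic acid. In RARα-KO mice a Cre recombinase under the distal Lck promoter (dLck-Cre) acts on a floxed Rara, and in RARα-TG mice the CD2 promoter drives Rara. Both promoters act in T cells of every kind, not in CTLs alone. Suspensions of each genotype were marked with a hashtag antibody (C0301 for WT, C0302 for RARα-KO, C0303 for RARα-TG). Each gave 30000 sorted T cells (CD45.2+ CD3+) and 10000 cells of any kind, which the labels call sorted and the methods unsorted, and 1 pooled library was made with a 10x Genomics 5′ kit and T cell receptor amplification. How many mice stood behind a genotype, and whether the WT mice were C57BL/6 or carried dLck-Cre, is not stated in the sources at hand. The labels also name spleen as the tissue and activated naive CD8 T cells as the cells, against their own tumor protocol, which was followed here.

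The library held 5600 barcodes with 500 or more gene UMIs, with a median of 4808, and the hashtags gave 1930 WT, 2109 RARα-KO and 896 RARα-TG cells. With 1 sample per genotype, differences between genotypes have no replicate and no test. Their intervals are exact 95% intervals of the UMI counts, which cover counting error only. Differences between cell types could be tested over the 3 tumors, each of another genotype, and those p-values speak for these 3 samples only. For single genes, differences between tumors that all cell types share were first taken out. Those p-values rest on the spread that is left, estimated over all 5 cell types together. Levels are UMIs of a gene scaled to a total of 1000000 gene UMIs (CPM). A UMI counts a molecule once at its 5′ end, so levels were not divided by gene length.

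T cells were the cells of clusters in which most barcodes had a T cell receptor. CTLs had Cd8a and no Cd4 UMIs (841 WT, 1183 RARα-KO and 113 RARα-TG cells). CD4 T cells were split by Foxp3, the factor that defines regulatory T cells (96, 166 and 112 without, 120, 79 and 151 with a Foxp3 UMI). Over all barcodes, the cluster led by Foxp3 held 776 cells, while 376 cells counted as Foxp3+ CD4 T cells. Cells without a Foxp3 UMI can therefore include regulatory T cells, and how many was not tested. Macrophage-like cells were 1 cluster led by Lyz2, Arg1, Apoe and C1qb (77, 127 and 35 cells). For MC38 cells the epithelial markers were near 0: the deepest cells in the library, with a median of 28282.5 UMIs, had a summed level of 3.445 CPM for 12 epithelial markers, but 1370 CPM of Col3a1 and 555.3 CPM of Dcn, genes of connective tissue matrix. Genes of the Y chromosome stood at 2.176 CPM in them, with no such UMI in 520 of 536 cells, and at 77.69 to 111 CPM in the immune cells. This check was chosen after the data were seen. These 268 WT, 128 RARα-KO and 18 RARα-TG cells are called Col3a1/Dcn cells here. The genotype given for them is that of the mouse that bore the tumor, which injected MC38 cells would not carry. Rara stood at 85.4 (WT), 78.66 (RARα-KO) and 190.8 CPM (RARα-TG) in CTLs. Counts of 5′ ends do not show the deleted exon, so the level in RARα-KO cells does not check the deletion.

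The 87 genes together held 992018 UMIs, or 2.217% of all gene UMIs in cells. In barcodes with 1 to 100 UMIs, which mostly hold free RNA, their share was 1.812%, so free RNA carries these genes too, and its part in the differences below was not tested. The highest levels within complex I were those of 4 accessory subunits, which surround the catalytic core: Ndufa13 at 469.5, Ndufa7 at 360.3, Ndufb9 at 282.3 and Ndufa6 at 279.4 CPM over all cells. In complex III they were those of the hinge protein gene Uqcrh at 668.4, Uqcrq at 334.8, Uqcrb, whose product lines the quinone site, at 273.3, and Uqcrfs1, the Rieske iron-sulfur protein, at 206.5 CPM. Cox8a at 1150, Cox4i1 at 1107, Cox5b at 556.6 and Cox6c at 519.4 CPM led complex IV. In complex V, Atp5g3 at 825 and Atp5g2 at 710.6 CPM, which both encode the c subunit of the membrane ring, were followed by Atp5e at 695.7 and Atp5d at 635.8 CPM, subunits of the central stalk. Many of these genes have near-identical processed copies in the genome, and 1 member, Ndufb1-ps, is named as a pseudogene in the matrix and as Ndufb1 in RefSeq. How the authors' counting split reads among such copies was not tested.

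Between the 3 tumors, the summed level of the genes varied most in the macrophage-like cells. In CTLs, the WT tumor had 24656, RARα-KO 24461 and RARα-TG 22158 CPM (23758 ± 1389, SD, n = 3 tumors). In Foxp3- CD4 T cells it was 21738, 23602 and 21417 CPM, and in Foxp3+ CD4 T cells 22093, 22916 and 21345 CPM, in the same order. The macrophage-like cells had 18076, 16926 and 25066 CPM (20023 ± 4405), and the Col3a1/Dcn cells 20659, 22126 and 20357 CPM (21047 ± 946.1). CTLs and Col3a1/Dcn cells did not overlap. The order of the means was CTL, Foxp3- CD4, Foxp3+ CD4, Col3a1/Dcn and macrophage-like, and the ranges of all neighbors in this order overlapped.

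The mean of the Col3a1/Dcn cells minus that of CTLs was -2711 CPM, at an exact two-sided permutation p of 0.100, which is the smallest that 3 against 3 tumors allow. The other 4 comparisons of summed levels overlapped, with exact permutation p-values of 0.2 to 0.8. That test does not use that both cell types of a pair came from the same tumors. Within tumors, the summed level was lower in Foxp3- CD4 T cells than in CTLs, and lower in Col3a1/Dcn cells than in CTLs, in 3 of 3 tumors each (exact two-sided permutation p = 0.25 within tumors, a test added after the data were seen and the smallest p that 3 pairs allow). By complex, the Col3a1/Dcn cells lay below CTLs without overlap in complex III (1812 ± 80.83 against 2264 ± 205.7 CPM), complex IV (5673 ± 277.5 against 6628 ± 506.6) and complex V (6618 ± 234 against 8295 ± 349.3). Complex I overlapped, and its mean was the higher one in the Col3a1/Dcn cells (6945 ± 389.7 against 6572 ± 331.4 CPM; exact permutation p = 0.4). Within tumors it was higher in 3 of 3, with nearly the same levels in WT (6770 and 6765 CPM).

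**Figure D1:**
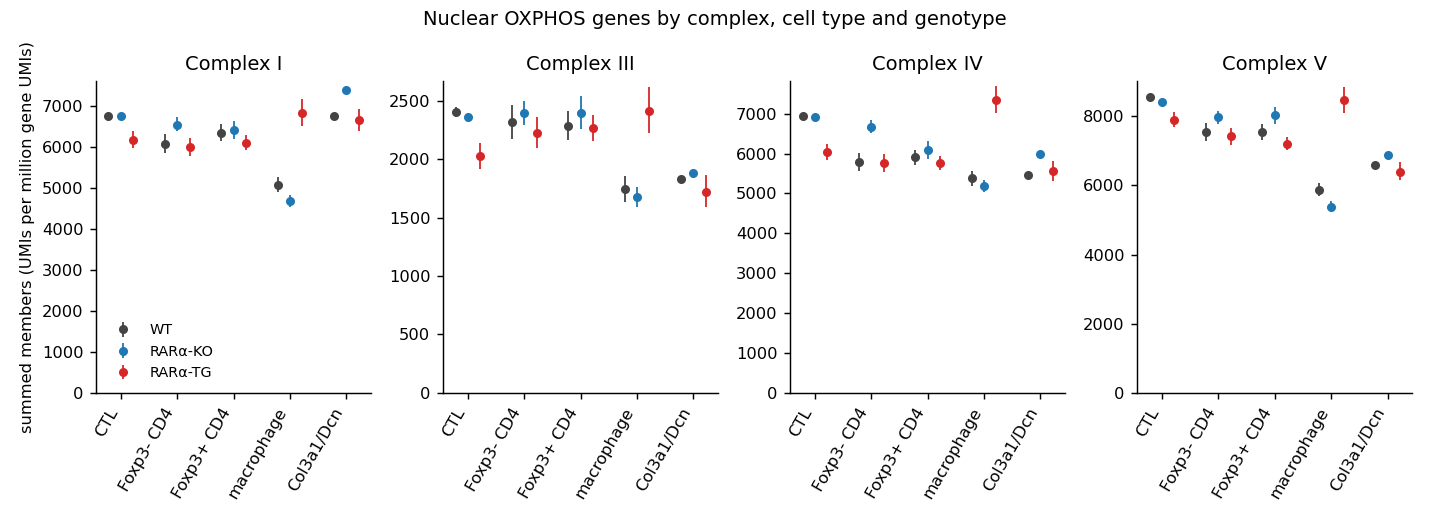
Summed level of the oxidative phosphorylation genes, in CPM, by complex and cell type, with 1 point for each genotype. CTLs and Col3a1/Dcn cells do not overlap in complexes III, IV and V, and the RARα-TG macrophage-like cells, at 25066 CPM over all genes, stand above the other 2 samples of their type.

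Among all clusters, the T cell cluster in cycle (led by Pclaf, Rrm2 and Mki67) had the highest summed level, 26701 CPM. The T cell clusters led by Rflnb, Atp1b1 and Lef1, the last a factor of naive and memory cells, and by Ramp3, S1pr1 and Tcf7 had 18686 and 18106 CPM. The lowest level was that of a cluster of 67 neutrophil-like cells, led by S100a8 and S100a9, with 6361 CPM. These cells were shallow, with a median of 1939 UMIs, and 13.43% of the cluster's barcodes carried more than 1 hashtag.

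Single genes were tested between cell types with edgeR's quasi-likelihood test on UMIs summed per cell type and tumor, with genotype as a block and Benjamini-Hochberg adjustment over 8181 genes; 80 of the 87 genes passed the filter on low counts. Between CTLs and Foxp3- CD4 T cells no member was called at an adjusted p under 0.05 by edgeR or DESeq2, where 2.49% of all genes were higher and 1.65% lower in the CD4 cells by edgeR. At an unadjusted edgeR p under 0.05 there were 14 of 80 members, beside 1432 of all 8181 genes, a like share. The log2 fold change was above 0 for 8 of 80 members, beside 3531 of 8181 genes, with a median of -0.28 against -0.07 over all genes. Without the RARα-TG tumor 1 member was called lower, the complex I accessory subunit gene Ndufa12 (log2 fold change -0.73, edgeR adjusted p = 0.0363). The core subunits of complex I had a median of -0.36, with 0 of 7 above 0. Between Foxp3+ and Foxp3- CD4 T cells, again, edgeR and DESeq2 called no member, beside 2.84% of all genes called higher and 2.40% lower in Foxp3+ cells by edgeR. None of the 80 members had an unadjusted p under 0.05 in edgeR, beside 1457 of 8181 genes. The median there was 0.06. The Foxp3- group of this comparison can hold regulatory T cells without a Foxp3 UMI.

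The macrophage-like cells differed from CTLs in 15 of 80 members: 3 were higher, beside 22.8% of all genes, and 12 lower, beside 27.3%. The shares of members called were below those of all genes in both directions. Single genes named in this and the following contrasts were picked for the size of their called folds. How many of all genes had groups without overlap was not counted. Uqcrb was at 314.1, 276.6 and 418.5 CPM in WT, RARα-KO and RARα-TG macrophage-like cells and at 254.8, 225.5 and 152.7 CPM in CTLs. Its groups did not overlap, and the log2 fold change was 0.91 ± 0.21 (SE; edgeR adjusted p = 0.00197). With each cell thinned to 1000 UMIs it was 0.58 and not called (edgeR adjusted p = 0.0995), and without the RARα-TG tumor it was 0.57 and called (edgeR adjusted p = 0.0113). Ndufc1 (0.63 ± 0.21, adjusted p = 0.0214), a complex I subunit of the membrane arm, and Uqcr11 (0.61 ± 0.23, adjusted p = 0.0362), a small complex III subunit, were also called in edgeR. After thinning neither was (adjusted p = 0.347 and 0.228), nor without the RARα-TG tumor (adjusted p = 0.0737 and 0.336), and Uqcr11 was 296.6 CPM in the RARα-TG macrophage-like cells against 138.8 in WT and 143.7 in RARα-KO.

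Lower in the macrophage-like cells were 3 assembly factors of complex I, proteins that help build the complex but are not part of it. Ndufaf7 had 6.942, 1.089 and 8.126 CPM in the macrophage-like cells (4, 1 and 2 UMIs) and 24.78, 25.69 and 29.87 CPM in CTLs. Its log2 fold change was -2.39 ± 0.48 (edgeR adjusted p = 0.00068), or -1.55 without the RARα-KO tumor, when the call was lost (adjusted p = 0.0563). Ndufaf5, which hydroxylates Ndufs7, and Ndufaf4 had log2 fold changes of -1.43 ± 0.53 (adjusted p = 0.0337) and -1.34 ± 0.39 (adjusted p = 0.00952) in the same test. Ndufaf5 lost its call without any 1 of the 3 tumors (adjusted p = 0.058 to 0.278), and Ndufaf4 without WT (0.156) or RARα-KO (0.0845). These 3 genes had between 1 and 8 UMIs per tumor in the macrophage-like cells, and after thinning none of them passed the filter on low counts.

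Ndufa4, a subunit of complex IV despite its name, was the lower member with the most UMIs among those named: 130.2, 159 and 182.8 CPM in macrophage-like cells against 337.3, 327.7 and 504.4 CPM in CTLs. The groups did not overlap, with a log2 fold change of -1.03 ± 0.23 (edgeR adjusted p = 0.00164). After thinning it was -0.66 and not called (edgeR adjusted p = 0.0697). How many members were called lower changed with the tumors used: 12 became 2 without WT, 1 without RARα-KO and 15 without RARα-TG. All genes called lower went from 2230 to 1042, 1224 and 2452 in the same fits. The calls also turned on the scaling, in which macrophage-like cells had TMM factors of 0.7919 to 0.8412. With RLE size factors 12 members were higher and 5 lower, beside 2136 and 1774 of all genes (1867 and 2230 with TMM). The median over all genes moved from -0.19 to -0.03 and that of the members from 0.01 to 0.16. The members' median was above that of all genes under both scalings, while the balance of higher and lower calls turned.

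The Col3a1/Dcn cells differed from CTLs in 34 of 80 members, with 11 higher, beside 32.7% of all genes, and 23 lower, beside 32.5%. Of 43 tested complex I genes 10 were higher and 8 lower. Complex V had 8 of 17 lower and none higher, complex IV 4 of 12 lower and none higher, and complex III 1 higher and 3 lower of 8. In no complex was the share of higher calls above that of all genes. The share of lower calls was above it in complex V, near it in complexes III and IV and below it in complex I. Without 1 tumor the higher calls were 5 to 10 and the lower ones 11 to 28, beside 1809 to 3254 and 1894 to 3179 of all genes. Without the WT tumor, 5 were higher and 11 lower, beside 1809 and 1894 of all genes.

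Of the 7 core subunits of complex I, 3 were higher and none lower, beside 32.7% and 32.5% of all genes. Ndufv1, which takes the electrons from NADH, had 158.6, 173.7 and 148.6 CPM in Col3a1/Dcn cells of WT, RARα-KO and RARα-TG tumors and 71.31, 67.85 and 79.65 CPM in CTLs. Its log2 fold change was 1.14 ± 0.17 (edgeR adjusted p = 1.59e-05). Its groups did not overlap. The assembly factor gene Ndufaf2 (1.01 ± 0.18, edgeR adjusted p = 0.000155) and the accessory subunit gene Ndufb4 (0.75 ± 0.21, edgeR adjusted p = 0.00535) were also called higher. Ndufb4 was not called without the WT tumor (adjusted p = 0.0838) or after thinning (log2 fold change 0.34, adjusted p = 0.327).

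The lower genes came from complexes I, III, IV and V. Atp5d, a subunit of the central stalk of the ATP synthase, stood at 413.1, 428.6 and 390.7 CPM in Col3a1/Dcn cells against 828.5, 851.9 and 804.8 CPM in CTLs (log2 fold change -1.04 ± 0.17, edgeR adjusted p = 4.67e-05). Uqcrh had 423.3, 404.1 and 476 against 926.9, 873.5 and 809.7 CPM (-1.03 ± 0.17, edgeR adjusted p = 7.73e-05). The largest negative folds were those of Ndufa4 (-1.50 ± 0.22, edgeR adjusted p = 2.17e-05) and of Ndufa3 (-1.32 ± 0.21, edgeR adjusted p = 4.82e-05), a small accessory subunit of complex I with 56, 67.26 and 90.81 against 171.7, 175.5 and 132.7 CPM. None of these 4 genes, picked as the largest called negative folds, overlapped between the cell types.

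Against the macrophage-like cells, the Col3a1/Dcn cells had 13 of 80 members higher, beside 30.7% of all genes, and 21 lower, beside 28.0%. Of the 13 higher members 10 were among the 43 tested complex I genes, a share below that of all genes. They included 4 of 7 core subunits and 4 of 6 assembly factors, while 8 of 17 complex V genes were lower and 2 higher. Without 1 tumor, 5 to 18 were higher and 14 to 20 lower, beside 1453 to 2895 and 1649 to 2668 of all genes. Ndufa10, an accessory subunit related to nucleoside kinases, was at 166.3, 167.5 and 162.3 CPM in Col3a1/Dcn and at 52.07, 50.09 and 60.95 CPM in macrophage-like cells (log2 fold change 1.35 ± 0.21, edgeR adjusted p = 5.13e-05). Among the assembly factors, Ndufaf7 (2.53 ± 0.48, edgeR adjusted p = 0.000292), Ndufaf5 (2.07 ± 0.50, edgeR adjusted p = 0.00234) and Ndufaf4 (1.11 ± 0.40, edgeR adjusted p = 0.0258) were higher, of which Ndufaf5 was not called without RARα-KO (adjusted p = 0.0984) and Ndufaf4 neither without WT (0.263) nor without RARα-KO (0.27).

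On the lower side, Atp5l, subunit g of the membrane part of the ATP synthase, had 319.6, 339.1 and 355 CPM in the Col3a1/Dcn cells against 548.4, 506.3 and 796.4 CPM in the macrophage-like cells. The log2 fold change was -1.15 ± 0.19 (edgeR adjusted p = 8.1e-05). Atp5mpl, a small proteolipid of the same part, had -1.05 ± 0.19 (edgeR adjusted p = 0.000221), but -0.54 and no call after thinning (adjusted p = 0.192). Ndufa3 had -1.24 ± 0.23 (edgeR adjusted p = 0.00028) and Ndufb1-ps -1.17 ± 0.21 (edgeR adjusted p = 0.000231).

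**Figure D2:**
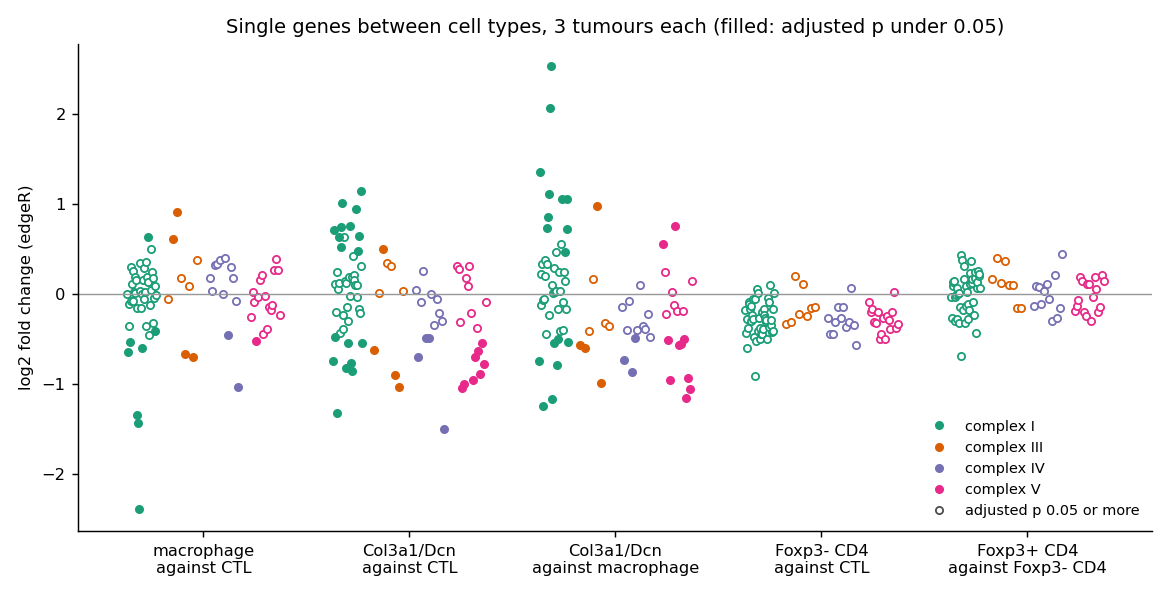
Log2 fold changes of the 80 tested genes between cell types by complex, from edgeR on sums per tumor, with 1 point per gene and filled points for an adjusted p under 0.05. In Col3a1/Dcn cells against CTLs the called complex I genes lie on both sides of 0, and the called complex V genes, 8 of 17, all lie below it. Of all genes 32.7% were called higher and 32.5% lower there.

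Other genes of mitochondrial energy metabolism were read from lists by function, beside the shares of all genes given above: 32.7% higher and 32.5% lower in Col3a1/Dcn cells than in CTLs, and 22.8% and 27.3% in macrophage-like cells. Of 12 tested subunit genes in mitochondrial DNA, 11 were lower and none higher in Col3a1/Dcn cells than in CTLs (median log2 fold change -0.76), and 1 was lower in macrophage-like cells. For the citric acid cycle, 9 of 16 genes were higher and 1 lower in Col3a1/Dcn cells than in CTLs. Proteins of the mitochondrial ribosome, which makes the mitochondrially encoded subunits, had 32 of 77 genes higher and 11 lower in the same comparison. Of 15 glycolysis genes, 7 were higher and 1 lower in Col3a1/Dcn cells than in CTLs, and 6 were higher and none lower in macrophage-like cells. The 4 genes of complex II held 1 higher call in Col3a1/Dcn cells and no call in macrophage-like cells.

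Between genotypes, the CTLs of RARα-KO and WT tumors had nearly the same level. The summed log2 ratio of RARα-KO to WT was -0.0114 (-0.0213 to -0.0015), and the median over the 83 members with 30 or more UMIs in both samples together was -0.02, against 0.01 over all genes. Among these members 38 were higher and 45 lower in CPM. None was past 1.5-fold in either direction, beside 6.17% of all genes higher and 6.00% lower. The members were more deeply counted than most genes (median 3264 UMIs over both samples against 331).

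The lowest ratio was that of Cox7a2l, at chr17:83501917-83514333 in the GRCm38.p6 assembly. Its product is known as a factor that can help join complexes III and IV into supercomplexes, and whether it does so in these mice was not tested. It stood at 157.8 CPM in RARα-KO and 210.5 CPM in WT CTLs, a log2 ratio of -0.42 (-0.53 to -0.30). In the other cell types the ratio was -0.31 (-0.72 to 0.11) in Foxp3- CD4 T cells, -0.62 (-1.13 to -0.12) in Foxp3+ CD4 T cells, -0.42 (-0.90 to 0.07) in macrophage-like cells and -0.11 (-0.24 to 0.03) in Col3a1/Dcn cells. All 5 ratios were below 0. The gene was named for its ratio in CTLs, and of the other 4 intervals only that of Foxp3+ CD4 T cells excluded 0. For RARα-TG against WT the same gene had ratios of 0.14, 0.01, -0.12, 0.53 and -0.24 in this order, and these ratios share the WT samples with those of RARα-KO.

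Next lowest in RARα-KO CTLs were the complex I genes Ndufaf2 (-0.31), Ndufs6 (-0.25, at 100.3 against 119.4 CPM), Ndufaf8 (-0.20) and Ndufaf3 (-0.20). Ndufaf2, Ndufaf8 and Ndufaf3 are assembly factors, and the 8 assembly factors together had a log2 ratio of -0.13 (-0.24 to -0.01), with 6 of 8 lower in CPM. The highest ratios were those of Ndufaf5 (0.24, with an interval from -0.22 to 0.70), Ndufs4 (0.22, at 103.2 against 88.78 CPM), Ndufb1-ps (0.17), Ndufs5 (0.16) and Ndufv3 (0.15). Ndufs4 encodes an accessory subunit needed for a stable complex I. By complex, the ratios lay within 0.03 of 0: 0.00 for I, -0.03 for III, 0.00 for IV and -0.02 for V.

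In RARα-TG CTLs most members were lower than in WT. The summed level was 22158 against 24656 CPM, a log2 ratio of -0.15 (-0.18 to -0.13), and 64 of the 81 members with 30 or more UMIs were lower and 17 higher in CPM. The members' median was -0.17, against 0.00 over all genes. Past 1.5-fold were 1 member higher and 2 lower, beside 13.6% of all genes higher and 17.5% lower. The log2 ratio was -0.13 for complex I, -0.25 for III, -0.20 for IV and -0.12 for V, and all 8 complex III genes were lower in CPM. All of this rests on 113 RARα-TG CTLs.

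Other measures moved with this ratio. RARα-TG CTLs had a median of 4680 UMIs per cell and WT CTLs 5668, and with each cell thinned to 1000 UMIs the log2 ratio was -0.108. Genes of the immediate-early response and of tissue dissociation stood at 970.7 CPM in RARα-TG CTLs and at 362.3 in WT, but at 1008 in RARα-KO CTLs. The monocyte markers were at 1878 CPM in RARα-TG, 1598 in RARα-KO and 1286 in WT CTLs. Among them is Ly6c2, which is also a leading gene of a T cell cluster described below. The macrophage markers were at 23.23, 24.83 and 20.86 CPM in the same order. The epithelial markers were at 87.94 CPM in RARα-TG and 26.92 in WT CTLs. The part of these lists in the result was not tested.

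Uqcrb of complex III, at chr13:66900576-66905350, was lowest, with 152.7 CPM in RARα-TG and 254.8 in WT CTLs (log2 ratio -0.74, -1.06 to -0.43). The following were Ndufaf3 (-0.72, -1.61 to 0.06), Ndufs7 (-0.55, -0.97 to -0.16), a core subunit of complex I that carries an iron-sulfur cluster, Ndufa9 (-0.53) and the complex IV gene Cox7c (-0.51, 343.5 against 488.5 CPM). Against the trend, Ndufa4, at chr6:11900372-11907450, had 504.4 against 337.3 CPM (0.58, 0.40 to 0.76), and Ndufaf4 39.82 against 24.6 CPM (0.70, 0.0044 to 1.33). Ndufaf7 (0.27), Ndufb11 (0.23) and Ndufa6 (0.19) were the other 3 with the highest ratios. Ndufa4 did not have this ratio in every T cell group: in Foxp3+ CD4 T cells it was 305 CPM in RARα-TG, against 473.6 CPM in WT (-0.63, -0.89 to -0.38), and in Foxp3- CD4 T cells 279.8 and 245.5 CPM (0.19).

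Genes of the same metabolism did not all share the ratio. In RARα-TG against WT CTLs, glycolysis genes had a summed log2 ratio of -0.99 (-1.03 to -0.95), with 16 of 16 lower and 14 past 1.5-fold, and the subunit genes in mitochondrial DNA had 0.23 (0.19 to 0.26), with 13 of 13 higher. In RARα-KO against WT CTLs glycolysis genes stood at 0.38 (15 of 16 higher) and the mitochondrially encoded ones at -0.11 (12 of 13 lower). The 4 complex II genes were at -0.13 in RARα-TG and at -0.01 in RARα-KO CTLs, with intervals that held 0 in both, and citric acid cycle genes at -0.32 and 0.00.

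**Figure D3:**
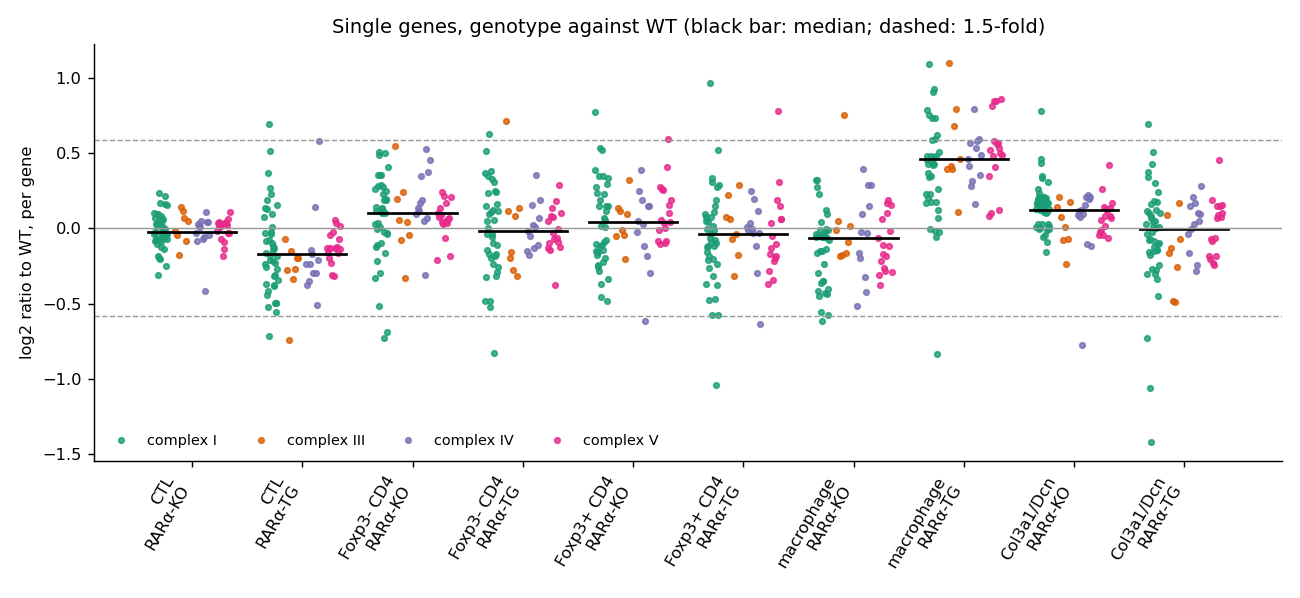
Log2 ratios of the single genes with 30 or more UMIs, by complex, in CTLs and macrophage-like cells of RARα-KO and RARα-TG against WT tumors. In RARα-TG macrophage-like cells 69 of 74 genes lie above 0, and in RARα-TG CTLs 64 of 81 lie below it.

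The CTLs of the 3 tumors lay in different clusters. The cluster led by Serpine2 and Prf1 held 13.79% of the WT, 47.59% of the RARα-KO and 3.54% of the RARα-TG CTLs, the one led by Gzmf, Gzmd and Gzme 35.55%, 8.03% and 1.77%, the one led by Gzma, Cd7 and Ly6c2 15.58%, 11.58% and 53.1%, and the one led by Rflnb, Atp1b1 and Lef1, in the same order, 6.659%, 1.86% and 23.89%. The clusters were computed without the oxidative phosphorylation genes. Within the Gzma cluster, the only one with 30 or more CTLs in both RARα-TG and WT, the level was 20970 CPM in RARα-TG and 21348 in WT, a log2 ratio of -0.03 (-0.07 to 0.02). By complex the ratios there lay on both sides of 0: 0.09 (0.00286 to 0.186) for I, -0.32 (-0.47 to -0.16) for III, -0.13 (-0.22 to -0.04) for IV and 0.05 (-0.03 to 0.13) for V. The summed ratio turned to 0.0243 with mitochondrially encoded, ribosomal and receptor genes left out of the total, and to 0.0598 after thinning. With each clonotype given the same weight, WT CTLs had 22085, RARα-KO CTLs 22361 and RARα-TG CTLs 21851 CPM, a log2 ratio of -0.02 for RARα-TG against WT.

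For RARα-KO against WT, 6 clusters could be compared. The log2 ratio was -0.17 (-0.20 to -0.14) in the cluster led by Xcl1 and Ifng, with 22220 against 25024 CPM. In the other 5 it was -0.06 in the cycling cluster, -0.02 in the Gzma cluster, 0.03 in the Gzmf cluster, 0.04 in the Serpine2 cluster and 0.11 in the cluster led by the interferon response gene Ifit1. The Ifit1 cluster turned to -0.0437 after thinning, and the Serpine2 cluster to -0.0145 with the same genes left out of the total. In the Xcl1 cluster the median over single members was -0.20, against -0.04 over all genes there.

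The T cell receptor gave a split of CTLs that uses no gene count. In WT tumors, 466 CTLs of up to 21 clonotypes with 10 or more cells had 24961 CPM. The 121 CTLs with a clonotype of their own had 22053 CPM. The log2 ratio was 0.18 (0.15 to 0.20), with 69 of 81 members higher, beside 4221 of 7934 genes. With mitochondrially encoded, ribosomal and receptor genes left out of the total, the WT ratio was 0.0764. In RARα-KO tumors, 682 and 94 such CTLs had 24293 and 23386 CPM, with the 682 from up to 27 clonotypes. The ratio was 0.05 (0.03 to 0.08), with 48 of 81 higher, beside 3793 of 8419 genes. These intervals do not cover the spread between clonotypes. The median over single members was 0.19 in WT and 0.04 in RARα-KO, against 0.04 and -0.05 over all genes. The difference between the 2 ratios has no replicate. Glycolysis genes were at 0.76 and 0.61 in these comparisons and mitochondrially encoded genes at -0.38 and -0.06. Cells of large clonotypes also had more UMIs (medians of 6029 against 4280 in WT and 5505 against 3936.5 in RARα-KO). With each cell thinned to 1000 UMIs the ratios were 0.192 in WT and 0.127 in RARα-KO. Among RARα-TG CTLs no clonotype reached 10 cells.

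In CD4 T cells the ratios between genotypes were small. The genotypes differed in their clusters here too. The T cell cluster led by Ramp1 and Ermn, with 0 CTLs, held 12 WT, 6 RARα-KO and 192 RARα-TG cells. Its summed level was 23848 CPM, and that of the cluster led by Foxp3 was 20274 CPM. The part of this in the ratios was not tested. Counts of members higher in CPM are given for CD4 T cells without the count over all genes. Foxp3- cells of RARα-KO tumors had a summed log2 ratio of 0.12 against WT, with 56 of 77 members higher in CPM and complex IV at 0.20. None was past 1.5-fold higher and 2 were lower (Ndufs1 and Ndufv1, both core subunits of complex I), beside 7.81% and 11.4% of all genes. Foxp3- cells of RARα-TG tumors had -0.02, with 36 of 75 higher, and 2 members past the fold higher and 1 lower, beside 9.22% and 9.77% of all genes. Uqcr10, a small complex III subunit, was 1 of those higher, at 265.1 against 161.4 CPM (0.72, 0.29 to 1.16).

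In Foxp3+ cells the summed log2 ratio was 0.05 for RARα-KO, with 43 of 75 members higher, and -0.05 for RARα-TG, with 31 of 76 higher. Red cell markers stood at 11025 CPM in the WT cells, against 2.047 in RARα-KO and 1.356 in RARα-TG. With these genes left out of the total, a choice made after the data were seen, the ratios were 0.0367 and -0.0657. After thinning the RARα-TG ratio turned to 0.0488. The mitochondrially encoded genes had ratios of -0.45 and -0.33. Past the fold in RARα-KO were Ndufa10 and Atp5k higher and Cox7a2l lower, 2 and 1, beside 6.84% and 8.70% of all genes. In RARα-TG they were Ndufaf7 and Atp5k higher and Ndufa4 and Ndufs4 lower, 2 and 2, beside 10.7% and 8.50%. Ndufs4 was at 62.36 CPM in RARα-TG and 128.4 in WT Foxp3+ cells (-1.04, -1.60 to -0.50). These genes outside CTLs are named because they passed the fold, after their values were seen.

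The macrophage-like cells had the widest range between genotypes. In RARα-TG tumors the 35 cells had a summed level of 25066 CPM, in WT 18076, and the log2 ratio was 0.47 (0.43 to 0.52). Of 74 members with 30 or more UMIs 69 were higher and 5 lower in CPM, and the median was 0.46 against 0.00 over all genes. Past 1.5-fold were 19 members higher, beside 13.5% of all genes, and 1 lower, beside 18.6%. Counted by complex, the higher ones were 10 of complex I, 3 of III, 2 of IV and 4 of V, and all 17 complex V genes with 30 UMIs had a ratio above 0. The 7 core subunits of complex I, in contrast, had a summed ratio of 0.08 (-0.21 to 0.37).

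The highest ratios, named after their values were seen, were those of Uqcr11, at chr10:80402997-80406821, with 296.6 CPM in RARα-TG against 138.8 CPM in WT (1.10, 0.62 to 1.57), and Ndufa8 with 166.6 and 78.1 CPM (1.09, 0.45 to 1.74). Atp5h, subunit d of the stalk that holds the ATP synthase in place, had 682.6 and 380.1 CPM (0.845, 0.55 to 1.14). The 1 lower member past the fold was Ndufs6, at 48.76 against 86.78 CPM (-0.83, -1.88 to 0.10).

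Other measures moved with this ratio. Ribosomal protein genes took 15.48% of the UMIs of RARα-TG, 10.76% of WT and 8.315% of RARα-KO macrophage-like cells. The 13 macrophage markers together stood at 20742 CPM in RARα-TG, 15736 in WT and 10185 in RARα-KO, and the 8 T cell markers at 113.8, 152.7 and 609.8 CPM. Glycolysis genes had a log2 ratio of -0.49 for RARα-TG against WT, mitochondrially encoded genes 0.36 and mitochondrial ribosome genes 0.36, while complex II was at 0.00. Of the cluster's barcodes 13.65% had more than 1 hashtag, and 9.556% had a clonotype. The part of these measures in the result was not tested. With ribosomal protein genes left out of the total, a choice made after the data were seen, the ratio was 0.55.

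RARα-KO macrophage-like cells had 16926 CPM, a log2 ratio of -0.09 (-0.13 to -0.06) against WT, with 55 of 75 members lower and 20 higher in CPM. The count over all genes is not given beside these. Past 1.5-fold were Uqcrc2, a core protein of complex III, on the higher side and Ndufb11 on the lower, 1 each, beside 12.4% and 9.89% of all genes. The ribosomal share and the T cell markers given above moved with this ratio too.

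The Col3a1/Dcn cells, the most deeply counted, gave narrow intervals for RARα-KO against WT. The summed log2 ratio was 0.10 (0.09 to 0.11), 65 of 83 members were higher in CPM, and complexes I and IV had 0.13 each, complex V 0.06 and complex III 0.04. Counts of genes higher in CPM are given for these cells without the count over all genes. Past 1.5-fold were 1 member higher and 1 lower, beside 5.67% and 3.73% of all genes. The higher one was the assembly factor gene Ndufaf3, at 37.81 CPM in RARα-KO and 22.03 in WT (0.78, 0.47 to 1.09), and all 8 assembly factors were higher in CPM (summed ratio 0.30, 0.19 to 0.41). In CTLs their summed ratio was on the other side of 0, as given above. The lower one was Cox6a2, with 12 and 41 UMIs.

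For RARα-TG, 18 Col3a1/Dcn cells gave a summed log2 ratio of -0.02 (-0.06 to 0.01), with 41 of 83 members higher. Past the fold were 1 member higher (Ndufa3) and 3 lower (Ndufa12, Ndufaf1 and Ndufaf3, the last 2 from 2 and 3 UMIs), beside 15.8% and 19.5% of all genes. T cell markers stood at 214.6 CPM in these cells, against 18.9 in WT and 65.87 in RARα-KO.

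Several complex IV subunits, and 1 that sits with them, exist as forms with a restricted tissue pattern, and these were nearly silent except in single clusters. Cox6a2, at chr7:128205435-128206366, is the heart and skeletal muscle form of subunit 6a. Of its 701 UMIs, 605 (86.31%) lay in a cluster of 55 cells led by Ly6d, Siglech, Klk1 and Ccr9. Siglech is a lectin known from plasmacytoid dendritic cells, but no marker list for such cells had been set, so the cluster stays unnamed. The level of Cox6a2 there was 1474 CPM (1359 to 1596), and that of Cox6a1, the form used in most tissues, 331.3 CPM (277.9 to 391.9). In every other cluster Cox6a2 was at 0 to 5.861 CPM, while Cox6a1 was at 123.6 to 505.2 CPM.

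A Cox6a2 UMI was found in 41 of the 55 cells (74.55%, exact interval 61.0 to 85.33), with a median of 6841 UMIs per cell. In the Gzmf cluster of CTLs, at a median of 7360 UMIs, it was found in 1 of 463 cells (0.216%). Barcodes with 1 to 100 UMIs had 12.81 CPM of Cox6a2, so free RNA held it at a low level. The 27 WT cells of the unnamed cluster had 2020 CPM (1819 to 2238), the 13 RARα-TG cells 1827 (1555 to 2134) and the 9 RARα-KO cells 316 (193 to 488.1), with a Cox6a2 UMI in 21, 12 and 4 of them. Cox6a1 stood at 386.4, 308.4 and 284.4 CPM in the same cells. With 9 RARα-KO cells, which of them are of the same kind as the rest of the cluster was not tested.

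**Figure D4:**
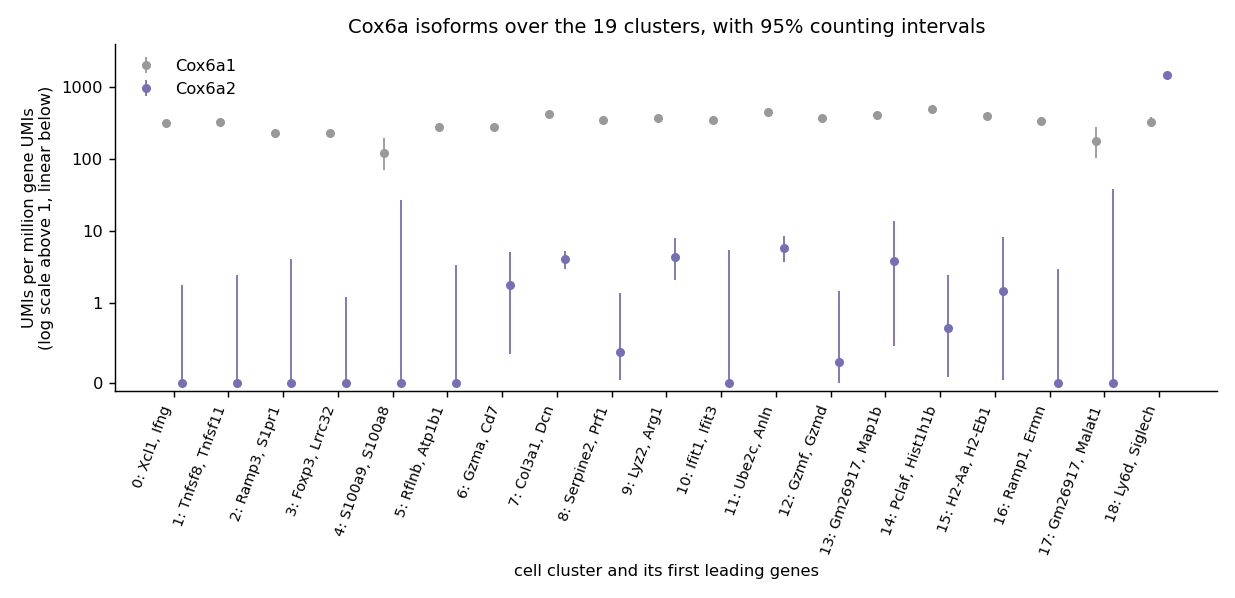
Level of Cox6a2 and Cox6a1 in each cluster, in CPM on a log scale, with exact 95% intervals of the counts. Cox6a2 reaches 1474 CPM in the cluster led by Ly6d and Siglech and stays at or below 5.861 CPM elsewhere, while Cox6a1 is found in every cluster.

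The remaining restricted forms were rare. Cox4i2, the form of subunit 4 known from lung and from low oxygen, had 29 of its 38 UMIs (76.32%) in the macrophage-like cluster, at 12.59 CPM and in 12 of 293 cells, and 8 in the larger Col3a1/Dcn cluster. Cox4i1 stood at 951.4 CPM in the macrophage-like cluster. Ndufa4l2, a relative of Ndufa4 known to be induced by low oxygen, had 25 of 35 UMIs (71.43%) in the larger Col3a1/Dcn cluster, from 8 of 435 cells, and 10 in the macrophage-like cluster. As a level it was 2.035 CPM (1.317 to 3.005) in the former and 4.34 CPM (2.081 to 7.982) in the latter. Cox7a1, the muscle form of subunit 7a, and Cox6b2, the testis form of subunit 6b, were spread thinly, with at most 32 UMIs of Cox7a1 and 12 of Cox6b2 in any cluster.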

How the data were processed

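The deposited gene matrix of 1 library holds raw UMI counts, as the authors left them, for every barcode, along with counts of 3 hashtags and a table of T cell receptor contigs. Per the labels, reads were aligned to mm10 (GRCm38) with Cell Ranger 6.1.0; the header of the deposited counts names another major version. Barcodes with 500 or more gene UMIs were kept as cells. HTODemux (Seurat 5.3.0, R 4.3.3, quantile 0.99) assigned genotypes and marked 427 doublets and 238 negatives, which were left out of them; doublets within a genotype remain. Cells were clustered (scanpy 1.11.5, Python 3.11.15, 30 components, resolution 1) without the members, mitochondrially encoded and receptor genes. A cluster was taken as T cells if most of its barcodes had a clonotype, and 169 shallow cells of 1 cluster were kept out of the Col3a1/Dcn cells; both rules were set after the clusters were seen.

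Genotypes, with 1 sample each, were compared by log2 ratios of CPM with exact binomial 95% intervals and a fold of 1.5 among genes with 30 or more UMIs in both samples together, with no test. Cell types were compared over 15 sums (5 cell types in 3 tumors) with edgeR 4.0.16 (quasi-likelihood, TMM, genotype as block), and summed levels with an exact permutation test (scipy 1.17.1). In counts simulated for macrophage-like cells against CTLs (7361 genes), 10 of 67 genes changed 1.5-fold, 37 of 67 changed 2-fold and 59 of 66 changed 4-fold were called, with 5 false calls. All 15 sums were drawn from 1 mean profile and 1 dispersion, with 200 genes changed and none differing between tumors. These rates need not hold for the real counts, in which many more genes were called. DESeq2 1.42.0, other scalings and filters, thinning to 1000 UMIs and leaving out a tumor were alternatives. Named were the 4 members with most UMIs per complex, the 5 highest and 5 lowest ratios in CTLs among members with 100 or more UMIs, the 4 largest called folds each way per cell type contrast, the restricted forms and the genes at the floor. A gene that this rule names in 1 contrast is not reported here. All 87 members matched RefSeq (GRCm38.p6), which gave the coordinates. The members and all lists were chosen with earlier results of these data known.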

Additional observations from a re-analysis of the deposited data

Results flagged for a closer look

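Some ratios of the summed oxidative phosphorylation genes to WT lay on opposite sides of 0 in different cell types. None of these differences between cell types was tested, since each genotype is 1 sample, and all ratios of a cell type share its WT sample. For RARα-KO, the log2 ratio was above 0 in Foxp3- CD4 T cells (0.119), Foxp3+ CD4 T cells (0.0527) and Col3a1/Dcn cells (0.0989), and below 0 in CTLs (-0.0114) and macrophage-like cells (-0.0948). For RARα-TG, it was above 0 in macrophage-like cells (0.472) and below 0 in CTLs (-0.154) and Foxp3+ CD4 T cells (-0.0497). Those of RARα-KO CTLs and of RARα-TG Foxp3+ CD4 T cells changed side under another setting, as given below.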

How the results depend on the processing

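No summed ratio has a replicate, so values are given for every setting that moved one beyond its counting interval; the cause was not tested. The log2 ratio of RARα-KO to WT in CTLs (-0.0114) was -0.0607 without mitochondrially encoded, ribosomal and receptor genes in the total (below, the reduced total), -0.03 with DESeq2 size factors, -0.000286 with each cell thinned to 1000 UMIs, -0.0328 with T cells defined by clonotype, -0.0352 without the Serpine2 cluster and 0.0179 with clonotypes weighted equally. That of RARα-TG in CTLs (-0.154) was -0.118 with the reduced total, -0.241 with TMM factors, -0.108 after thinning, -0.128 by clonotype and -0.0153 with equal clonotypes. In Foxp3- cells RARα-KO (0.119) moved to 0.214 (TMM) and 0.211 (DESeq2). In Foxp3+ cells RARα-KO (0.0527) moved to 0.0915 (TMM) and 0.127 (thinned), and RARα-TG (-0.0497) to -0.0937 (reduced total) and 0.0488 (thinned). For macrophage-like cells RARα-KO (-0.0948) gave -0.135 (reduced total), -0.144 (TMM), -0.019 (thinned), -0.145 (clonotype) and -0.134 (no ribosomal genes, chosen after seeing the data), and RARα-TG (0.472) gave 0.554, 0.384, 0.533 and 0.55 under the same settings except clonotype, and 0.406 with DESeq2. Col3a1/Dcn cells gave 0.0875 (DESeq2), 0.0836 (thinned) and 0.126 (median of the members) for RARα-KO (0.0989), and 0.0468, 0.0348 and, without the cycling cluster (chosen after seeing the data), -0.0933 for RARα-TG (-0.0213). The effect of clonotype size was 0.0764 with the reduced total in WT (0.179) and 0.127 after thinning in RARα-KO (0.0549). Within CTL clusters, the reduced total and thinning gave -0.212 and -0.104 for Xcl1, -0.0624 and -0.072 for Gzma (RARα-KO), 0.0243 and 0.0598 for Gzma (RARα-TG), 0.0491 and -0.0437 for Ifit1 and -0.0946 and -0.0132 for the cycling cluster; Serpine2 was -0.0145 with the reduced total and 0.0647 as a median.

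Of the calls between macrophage-like cells and CTLs, the 3 higher were 15 with DESeq2, 12 with RLE factors, 7 without a filter, 7 without the genes of the reduced total and 0 after thinning, and 2 to 3 without 1 tumor. All genes called higher (1867) were, in this order, 2066, 2136, 2561, 1996, 674 and 1441 to 2096. The 12 lower were 5 with RLE factors, 5 without a filter, 4 after thinning, 4 with only these 2 cell types, and 1 to 15 without 1 tumor. All genes called lower (2230) were, in this order, 1774, 2377, 585, 1335 and 1042 to 2452. Col3a1/Dcn cells against CTLs had 19 higher with DESeq2, 17 with RLE factors and 4 after thinning, and 5 to 10 higher and 11 to 28 lower without 1 tumor. All genes there had 2647, 2844, 744, 1809 to 3254 and 1894 to 3179. Against macrophage-like cells the Col3a1/Dcn cells had 8 higher without a filter, 6 higher and 8 lower after thinning, and 5 to 18 higher without 1 tumor. All genes had 3001, 532, 810 and 1453 to 2895. Foxp3- cells against CTLs had 1 lower call after thinning (Ndufb2), and 0 to 1 without 1 tumor, beside 61 and 22 to 183 of all genes. Over 23 named members and the settings in which each was tested, 212 of 238 values kept the call, 26 did not and none reversed. The assembly factor genes Ndufaf2, Ndufaf4, Ndufaf5 and Ndufaf7 failed the filter on low counts after thinning and have no value there. Ndufaf5 also has none with only macrophage-like cells and CTLs. Thinning left out 238 of 5600 cells. Genotypes could not be compared in pairs, because each is 1 sample. Cell types were paired by tumor, through the genotype block in edgeR and in the permutation within tumors. Without the block 3 members were called higher and 10 lower in macrophage-like cells than in CTLs, beside 1815 and 2162 of all genes. The number of RARα-TG cells (113 CTLs, 35 macrophage-like, 18 Col3a1/Dcn) limits the precision of those ratios.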

Other observations

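Genes that serve the same machinery from outside the symbol rule were also counted, from lists by function, with the edgeR fit described above. Over all genes 22.8% were higher and 27.3% lower in macrophage-like cells than in CTLs, 32.7% and 32.5% in Col3a1/Dcn cells than in CTLs, and 30.7% and 28.0% in Col3a1/Dcn than in macrophage-like cells. Of 77 mitochondrial ribosome genes, 6 were called higher and 17 lower in macrophage-like cells than in CTLs, and 34 higher and 4 lower in Col3a1/Dcn than in macrophage-like cells. Among 22 assembly factors with other symbols, none was higher and 6 were lower in macrophage-like cells than in CTLs, and 6 were higher and 7 lower in Col3a1/Dcn cells than in CTLs. Electron carriers and the enzymes that make ubiquinone had 4 of 9 genes higher and none lower in Col3a1/Dcn cells than in CTLs, and 1 higher and none lower in macrophage-like cells. Of 7 tested regulators of mitochondrial genes, such as Nrf1, Gabpa and Tfam, 4 were lower and none higher in macrophage-like cells than in CTLs (median log2 fold change -0.69).

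Between genotypes, which have no replicate, mitochondrial ribosome genes in CTLs had a summed log2 ratio to WT of -0.0044 for RARα-KO; for RARα-TG it was -0.19 (-0.25 to -0.14), and 55 of 78 genes were lower in CPM. The assembly factors with other symbols stood at -0.33 (-0.44 to -0.21) in RARα-TG CTLs, and the regulators at -0.05 (-0.27 to 0.17).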
